A study of Mus musculus with 144 samples.

Results

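The comparison covered the kidneys of mice 6 months old: 6 nmrHAS2 kidneys, 3 from females and 3 from males, against 6 CreER kidneys, 3 of each sex. These are 12 of the 144 libraries of the study, chosen by the tissue, age and genotype in their labels, and both sexes were given equal weight. nmrHAS2 mice carry the hyaluronan synthase 2 gene of the naked mole-rat as a transgene together with the CreER recombinase. CreER mice carry the recombinase alone and are the controls. In the study's model, as known background, the transgene sits behind a stop cassette under a broadly active promoter, and CreER, a Cre recombinase fused to a modified estrogen receptor, removes that cassette once tamoxifen is given, so that both genotypes share the recombinase and the drug. The labels give neither the tamoxifen schedule nor the animal or the hour of the day behind each kidney, and the 12 kidneys of mice 24 months old are used only for comparison.

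Hyaluronan is a long, unbranched sugar polymer of the space between cells, made at the cell surface by the hyaluronan synthases Has1, Has2 and Has3 and cut down by hyaluronidases. Cells sense it through receptors such as CD44, and its effect is known to depend on its length, long chains being the form that the naked mole-rat synthase makes. In the kidney it is known mainly from the interstitium of the inner medulla and from injured or inflamed tissue. Because RNA of kidney tissue was sequenced, fewer cells of a type and less RNA per cell cannot be told apart in any result below.

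The 12 libraries held 21.5 M to 37.8 M counts. Defining markers of the podocyte, proximal tubule, thick ascending limb and collecting duct lists were present in every group, with none of those lists' genes at 0 in all libraries of a group. Sex went together with the kind of library: 7 RNAs without poly(A) tails made up 10.3 to 11 percent of the counts in female nmrHAS2 and 10.4 to 13 percent in female CreER kidneys, and 0.000277 to 0.000582 percent in male nmrHAS2 and 0.000349 to 0.00192 percent in male CreER kidneys. Both genotypes shared the kind within a sex, so the genotype comparison is made within a kind, but any difference between the sexes cannot be told apart from a difference between library kinds. The library of replicate 1 of the male CreER kidneys stood apart: in it 12 adrenal genes summed to 385.3 CPM (counts scaled to the library total), against 1.14 to 6.15 CPM in the 6 nmrHAS2 kidneys and 1.59 to 3.02 CPM in the other 5 CreER kidneys.

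The naked mole-rat transcript was present in all 6 nmrHAS2 kidneys and in none of the CreER kidneys. Its counts were 212, 249 and 217 in female nmrHAS2 kidneys and 140, 570 and 165 in male nmrHAS2 kidneys, against 0 in each of the 6 CreER kidneys. A count of 0 allows up to 0.0793 to 0.14 CPM in these libraries, taking 3 counts per library as the limit and covering counting error only. Replicate 2 of the male nmrHAS2 kidneys, at 22.7 CPM, lay above the other 5 nmrHAS2 kidneys, which held 5.12 to 8.9 CPM. Averaged over libraries, the level was at least 93.5-fold higher in nmrHAS2 than in CreER females and at least 83.1-fold higher in males, against that limit.

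Mouse Has2, the animals' own synthase, was highest in the library that was highest for the transgene. It had 45, 43 and 53 counts in female and 25, 105 and 26 counts in male nmrHAS2 kidneys, against 5, 4 and 5 counts in female and 0, 1 and 0 counts in male CreER kidneys. The groups did not overlap in either sex. The ratio of CPM was 12.4 in females (95% counting interval 7.14 to 23.2), and in males, where the CreER kidneys held 1 count in all, it was 129 (22.8 to 5120). Has2 counts were 0.158 to 0.244 of the transgene counts in the 6 nmrHAS2 kidneys. The Has2 values are uncertain, since reads of the transgene can be assigned to its mouse counterpart, and how many were was not tested.

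**Figure D1:**
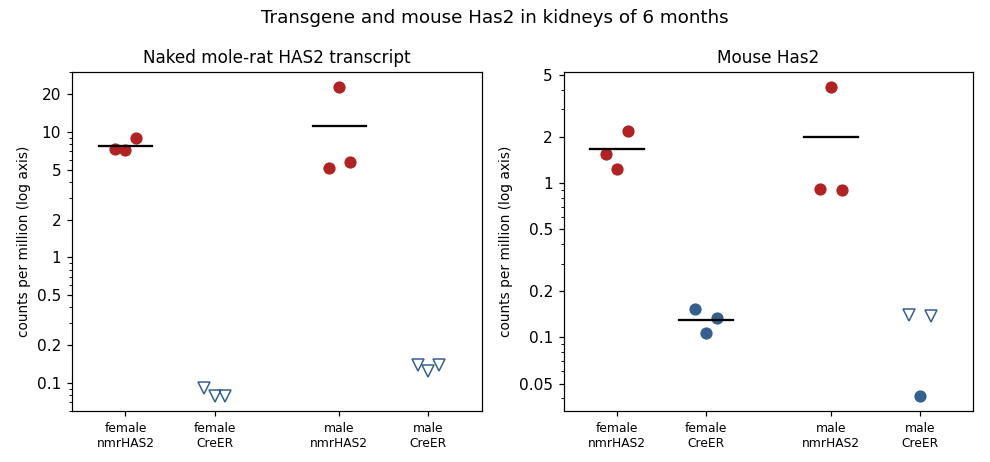
CPM of the naked mole-rat HAS2 transcript (left) and of mouse Has2 (right) in each kidney of 6 months, on log axes. Points are libraries, bars are the means of groups in which no library had a count of 0, and open triangles mark the limit of 3 counts for libraries with a count of 0. All 6 nmrHAS2 kidneys lie above all 6 CreER kidneys for both transcripts, and replicate 2 of the male nmrHAS2 kidneys is highest for both.

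Across all genes, 548 rose (2.95 percent) and 654 fell (3.52 percent) in nmrHAS2 relative to CreER kidneys, in all 6.47 percent of the 18591 genes tested (edgeR's quasi-likelihood test, Benjamini-Hochberg adjusted p under 0.05). The changes were small: the median log2 change was 0.31 among the genes that rose and -0.26 among those that fell, and 54 of the 1202 called genes changed by 1 or more on the log2 scale. Of the called genes, 998 had the same sign in both sexes, and 1150 had the larger change in males. The call rests on the mean of the female and male changes, which favours equal signs. The agreement in sign is therefore partly set by the selection, and its share over all genes is not given here. Genes that rose had a median log2 change of 0.06 in females and 0.54 in males, and genes that fell had -0.10 in females and -0.42 in males. Tested within each sex, 1583 genes rose (8.51 percent) and 1564 fell (8.41 percent) in males, 16.9 percent of those tested in all, while 6 rose (0.0323 percent) and 1 fell (0.00538 percent) in females, 0.0377 percent in all. The test of the difference itself, the change in females minus that in males, called 669 genes, 3.6 percent. Leaving out 1 library at a time gave 410 to 1076 called genes for both sexes together, lowest without replicate 2 of the female CreER kidneys.

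The male changes followed transcript length and base composition. Among the 14254 genes with at least 1 CPM, the median log2 change in males was -0.26 in the quintile with the shortest transcripts (up to 1903 bases) and 0.22 in the quintile with the longest (from 5216 bases), while in females it was -0.02 in both. Of the longest quintile 324 genes rose and 12 fell, and of the shortest quintile 14 rose and 371 fell. By GC content, the male median was 0.14 in the lowest quintile and -0.20 in the highest, with 0.01 and -0.04 in females. For a score per library, each gene was taken relative to its mean over the 12 libraries. The median of the short quintile was then subtracted from that of the long quintile. This score was 0.177 to 0.203 on the log2 scale in the 3 male nmrHAS2 kidneys, against -0.297 to -0.196 in the 3 male CreER kidneys. In females the same score was -0.0357 to 0.108 in nmrHAS2 and -0.0456 to 0.0883 in CreER kidneys, which overlap. With the trend on length and GC removed from each library, an alternative added after seeing the data, 58 genes rose and 160 fell, 1.17 percent of those tested, and 157 of them were among the 1202. The same alternative called 1079 genes in males, 5.8 percent, and 4 genes for the difference between the sexes, 0.0215 percent. What this trend in the male libraries comes from was not tested. Of the 74 named genes called, 55 lost the call with the correction. A gene given below without a corrected value is not thereby shown to be free of the trend.

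**Figure D2:**
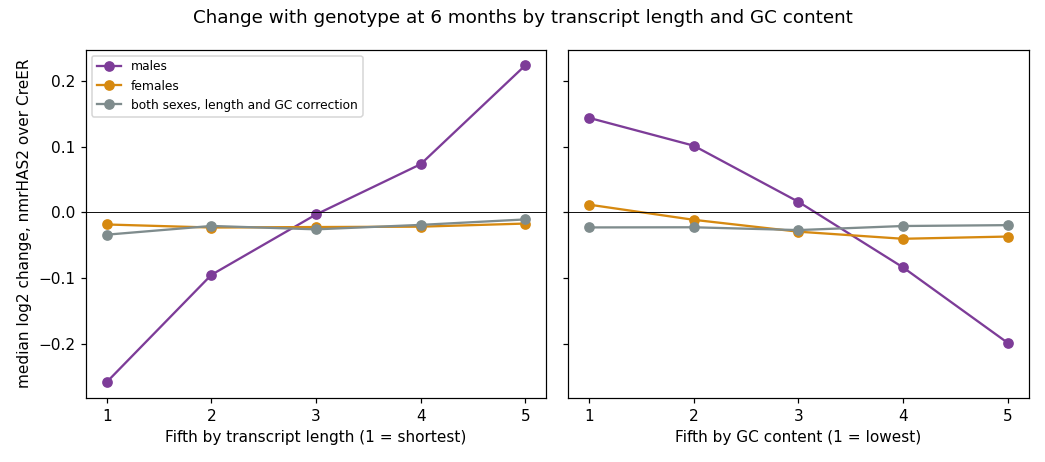
Median log2 change of nmrHAS2 over CreER kidneys of 6 months in quintiles of genes by transcript length (left) and GC content (right). Males run from -0.26 to 0.22 with length and from 0.14 to -0.20 with GC content, females stay between -0.04 and 0.01, and the values after the correction lie between -0.03 and -0.01 for both sexes together.

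Single genes of the circadian clock changed in both directions. The clock is a loop in which Arntl (BMAL1) pairs with Clock or Npas2 to switch on genes through E-box sequences, among them the repressors of the Per and Cry families, the repressor Ciart and the output factors Dbp and Tef; these repressors and outputs then peak when Arntl and Npas2 are low. Of the 19 clock genes tested in the list used here, Arntl, Npas2 and Clock rose, and Dbp, Ciart, Cry2 and Tef fell, in nmrHAS2 relative to CreER kidneys: 3 of 19 rose and 4 fell, where 2.95 percent of all genes rose and 3.52 percent fell. The list's median log2 change was -0.23, against -0.00252 over all genes, with -0.32 in females and -0.13 in males.

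Arntl had 20.3, 24.2 and 21.3 CPM in female and 8.84, 7 and 13.3 CPM in male nmrHAS2 kidneys, against 14.5, 16.1 and 15.2 CPM in female and 4.14, 3 and 2.27 CPM in male CreER kidneys (CPM scaled by TMM here and below, except summed levels of marker lists). All nmrHAS2 kidneys lay above all CreER kidneys of their sex. Its log2 change was 1.08 ± 0.21 (standard error, adjusted p = 0.0071, edgeR). Npas2, which stands in for Clock as the partner of Arntl, had 3.32, 4.05 and 4.72 CPM in female and 4.29, 2.50 and 7.74 CPM in male nmrHAS2 kidneys, against 2.41, 2.44 and 2.01 CPM in female and 1.77, 1.71 and 1.37 CPM in male CreER kidneys. Its change of 1.20 ± 0.30 passed (adjusted p = 0.0216, edgeR) and again the groups did not overlap in either sex. It did not pass without replicate 3 of the male nmrHAS2, replicate 2 of the female CreER or replicate 3 of the male CreER kidneys, with an adjusted p of up to 0.064. Clock itself rose by 0.34 ± 0.08 (adjusted p = 0.0201, edgeR), with -0.02 in females and 0.69 in males, and with the length and GC correction it was 0.13 (adjusted p = 0.402).

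Dbp and Ciart fell. Dbp, a transcription factor of clock output, had 5.99, 6.03 and 6.25 CPM in female and 30.6, 49 and 16.6 CPM in male nmrHAS2 kidneys, against 15.5, 14.3 and 17 CPM in female and 80.5, 73.9 and 103 CPM in male CreER kidneys. The log2 change was -1.36 in females, -1.42 in males and -1.39 ± 0.30 over both (adjusted p = 0.0126, edgeR), with no overlap in either sex. Ciart, a repressor that binds the Arntl complex, had 0.253, 0.201 and 0.323 CPM in female and 3.38, 7.12 and 0.872 CPM in male nmrHAS2 kidneys, against 0.842, 0.632 and 0.915 CPM in female and 11.6, 10 and 9.82 CPM in male CreER kidneys. It fell by 1.55 ± 0.37 on the log2 scale (adjusted p = 0.0188, edgeR). Without replicate 2 of the female nmrHAS2 kidneys its adjusted p was 0.0595. Replicate 3 of the male nmrHAS2 kidneys was the lowest of its group for Dbp and Ciart and the highest for Arntl and Npas2.

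Cry2, a repressor of the Arntl complex, had 5.02, 4.65 and 3.63 CPM in female and 10.2, 13.8 and 12.6 CPM in male nmrHAS2 kidneys, against 7.37, 6.86 and 6.69 CPM in female and 17.1, 17.7 and 20.8 CPM in male CreER kidneys. It fell by 0.63 ± 0.11 on the log2 scale (adjusted p = 0.00365, edgeR). Tef, an output factor related to Dbp, had 57.8, 59.3 and 62.2 CPM in female and 193, 242 and 172 CPM in male nmrHAS2 kidneys, against 94.6, 97.1 and 86.7 CPM in female and 262, 270 and 258 CPM in male CreER kidneys. It fell by 0.51 ± 0.12 (adjusted p = 0.0182, edgeR), with an adjusted p of 0.0542 without replicate 2 of the female CreER kidneys. Both were lower in every nmrHAS2 kidney than in every CreER kidney of the same sex. Members that missed the threshold, chosen for mention after their values were seen, include the repressors Per2, at -0.77 ± 0.27 (adjusted p = 0.0901), and Per3, at -0.69 ± 0.25 (adjusted p = 0.0995). Nr1d1, the nuclear receptor that represses Arntl and was chosen in the same way, differed by -0.09 ± 0.18 (adjusted p = 0.81), and its libraries overlapped in both sexes.

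With the length and GC correction, Arntl (1.03, adjusted p = 0.02), Npas2 (1.19, adjusted p = 0.0444), Cry2 (-0.58, adjusted p = 0.0166), Dbp (-1.22, adjusted p = 0.047) and Tef (-0.51, adjusted p = 0.0428) still passed, and Ciart (-1.48, adjusted p = 0.0545) did not. At 24 months, in other animals, none of the 7 clock genes passed: the log2 change was 0.35 for Arntl, 0.56 for Npas2, 0.19 for Clock, -0.21 for Dbp, -0.21 for Ciart, -0.17 for Cry2 and -0.30 for Tef. The difference between the ages did not pass for any of them either (adjusted p = 0.11 for Cry2 to 0.559 for Tef), so an effect of age on these changes was not shown. The hour of collection is not in the labels used here, and its part in these changes was not tested.

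**Figure D3:**
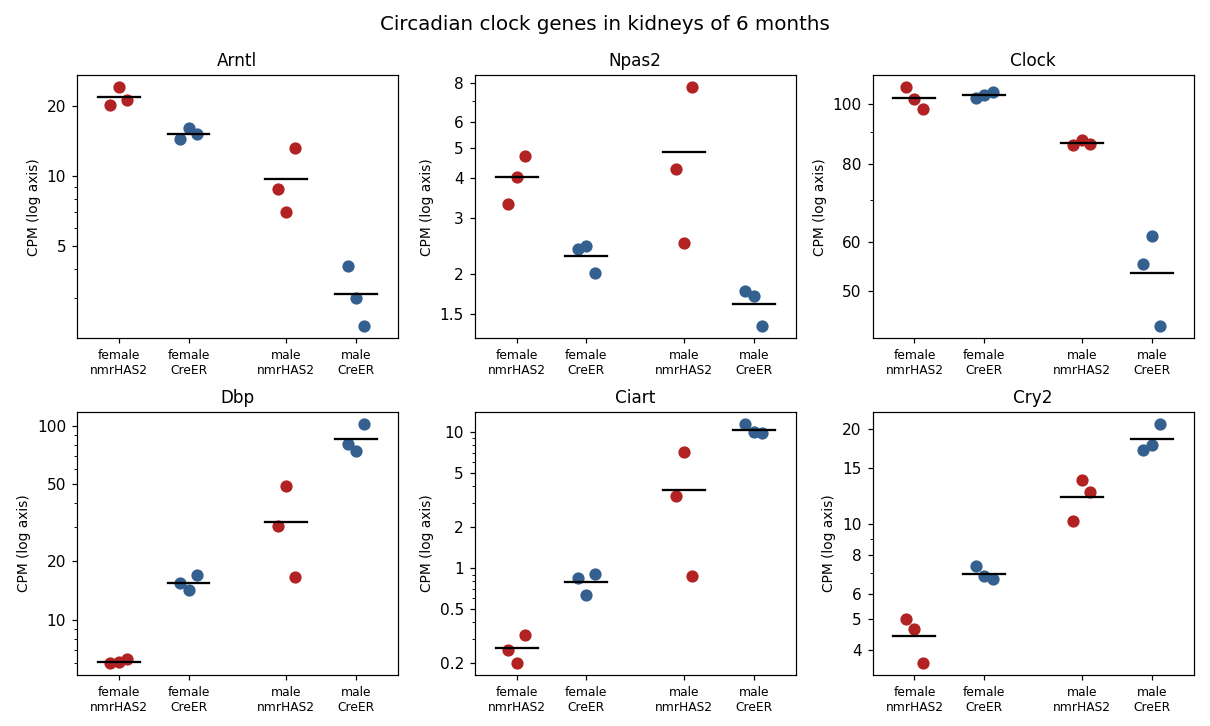
Levels of 6 clock genes in each kidney of 6 months, in CPM on log axes; points are libraries and bars are group means. Arntl and Npas2 are higher in nmrHAS2 than in CreER kidneys in both sexes, Clock is apart in males and overlaps in females, and Dbp, Ciart and Cry2 are lower in both sexes without overlap.

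The promoters of clock genes that moved are shown because clock factors are known to act through short motifs near the start site. The windows run from 250 bases before to 50 after the start of the gene, from RefSeq on GRCm38.p6, and 16 clock genes had 1 or more of the 21 windows read. The motifs were searched on both strands: the E-box CACGTG, which is its own reverse complement, the D-box TTATGTAA bound by Dbp and Tef, and TAGGTCA, a core of the element read by the Nr1d and Ror receptors. The E-box was found in 7.15 percent of all 32851 promoter windows, the D-box in 0.938 percent and TAGGTCA in 2.61 percent. Capitals mark the motif found, an E-box in Ciart and Tef and TAGGTCA in Arntl.

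Ciart, chr3:95882179-95882478, minus strand: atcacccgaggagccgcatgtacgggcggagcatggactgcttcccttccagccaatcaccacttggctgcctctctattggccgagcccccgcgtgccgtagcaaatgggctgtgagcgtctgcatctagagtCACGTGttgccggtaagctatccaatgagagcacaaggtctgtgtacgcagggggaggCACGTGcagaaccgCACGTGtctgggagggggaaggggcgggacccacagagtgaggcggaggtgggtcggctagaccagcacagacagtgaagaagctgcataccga

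Tef, chr15:81802423-81802722, plus strand: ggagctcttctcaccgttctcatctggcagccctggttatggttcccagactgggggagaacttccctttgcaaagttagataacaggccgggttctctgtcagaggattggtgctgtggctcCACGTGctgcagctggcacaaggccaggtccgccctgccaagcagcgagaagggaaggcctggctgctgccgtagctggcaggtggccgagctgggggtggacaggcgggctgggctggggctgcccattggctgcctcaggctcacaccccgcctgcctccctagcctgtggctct

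Arntl, chr7:113207261-113207560, plus strand: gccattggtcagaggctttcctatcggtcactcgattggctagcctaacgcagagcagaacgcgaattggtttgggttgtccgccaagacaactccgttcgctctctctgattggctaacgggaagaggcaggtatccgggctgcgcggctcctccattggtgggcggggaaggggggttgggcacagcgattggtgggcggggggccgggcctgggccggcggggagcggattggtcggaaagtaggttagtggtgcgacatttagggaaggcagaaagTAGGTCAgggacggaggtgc

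Ciart held 3 E-boxes in this window, and Tef held 1 in each of its 2 windows. TAGGTCA in Arntl lay after the start site. Among the other clock genes the E-box was found in Bhlhe41, Cry1 and Per1, none of which was called, TAGGTCA in Nfil3, and the D-box in Per3 at 2 places. In the windows of Dbp, Npas2, Clock and Cry2 none of the 3 motifs was found. These matches describe the letters of the windows and say nothing on binding.

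Beyond the transgene, the calls of the hyaluronan lists were among synthesis genes. Of 10 synthesis genes tested, 2 rose and none fell, where 2.95 percent of all genes rose. The 2 were Has2, which is uncertain as above, and Gfpt1, the entry enzyme of the pathway that makes the amino sugar of hyaluronan. Gfpt1 had 49.8, 50.2 and 52.8 CPM in female and 61.7, 60.5 and 60.6 CPM in male nmrHAS2 kidneys, against 53.4, 49.7 and 47.8 CPM in female and 49.6, 47.9 and 47.6 CPM in male CreER kidneys. Its groups overlapped in females and not in males. The change was 0.17 ± 0.05 (adjusted p = 0.0333, edgeR), and with the length and GC correction it was 0.04 (adjusted p = 0.738). With 1 library left out at a time, it lost the call in 10 of 12 cases, with an adjusted p of up to 0.0868 (edgeR). Below, lost calls are given in the same way for genes named by the rule stated with the processing. For genes outside that rule, such as Fn1, Fgf9, Dusp4, Hbegf and Arrdc4, they are not given. Has3, the remaining synthase that passed the filter on low counts, differed by 0.05 ± 0.21 (adjusted p = 0.936), and Ugdh, which makes the other sugar building block, differed by 0.04 ± 0.14 (adjusted p = 0.914).

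None of 8 degradation genes and none of 18 receptor and binding genes was called, where 6.47 percent of all genes tested were called. At that share, no call in lists this short does not set them apart. The median log2 change of these 2 lists was 0.05 and 0.16. Hyal1, a lysosomal hyaluronidase, had 9.64, 9.51 and 11.1 CPM in female and 10.5, 14.9 and 13.8 CPM in male nmrHAS2 kidneys, against 7.97, 7.94 and 6.77 CPM in female and 12.1, 12.1 and 5.90 CPM in male CreER kidneys. The groups were apart in females and overlapped in males, and the change of 0.40 ± 0.15 missed the threshold (adjusted p = 0.117, edgeR). Hyal2, a hyaluronidase of the cell surface, differed by -0.14 ± 0.05 (adjusted p = 0.124). Cd44, the main hyaluronan receptor, had 3.28, 2.59 and 5.61 CPM in female and 2.24, 2.29 and 2.37 CPM in male nmrHAS2 kidneys, against 2.26, 2.50 and 2.38 CPM in female and 1.67, 1.89 and 1.65 CPM in male CreER kidneys. Every nmrHAS2 kidney lay above the CreER kidneys of its sex, but the change of 0.54 ± 0.27 did not pass (adjusted p = 0.245, edgeR). Hmmr, a hyaluronan-binding protein that is also a gene of dividing cells, differed by 0.86 ± 0.34 (adjusted p = 0.135) and Stab2, an endothelial clearance receptor, by 0.50 ± 0.20 (adjusted p = 0.147), with -0.14 in females and 1.13 in males. The other receptor and binding genes ranged from -0.27 for Itih2 to 0.42 for Itih4, with Tlr2 at 0.29, Tlr4 at 0.26, Lyve1 at 0.40 and Vcan at 0.17.

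Of 43 nuclear genes of oxidative phosphorylation tested, 14 fell and none rose, with a median log2 change of -0.19 (-0.07 in females and -0.33 in males); over all genes 3.52 percent fell. Atp5d, a subunit of ATP synthase, had 153, 150 and 156 CPM in female and 205, 196 and 196 CPM in male nmrHAS2 kidneys, against 161, 178 and 157 CPM in female and 264, 290 and 279 CPM in male CreER kidneys. It fell by 0.30 ± 0.05 on the log2 scale (adjusted p = 0.00223, edgeR), without overlap in either sex. Ndufs7 and Ndufb10, both subunits of complex I, fell by 0.34 and 0.27, and Cyc1, the cytochrome c1 of complex III, fell by 0.25 (adjusted p = 0.0035, 0.00709 and 0.00674, edgeR). The 13 genes encoded on the mitochondrial genome were not called, with a median of 0.03.

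Transcripts of this list are short, with a median length of 1363 bases against 3083 over all genes tested. With the length and GC correction the list's median was -0.11 and 5 of its genes fell. None of the 4 genes just named was among them (adjusted p = 0.228 for Atp5d, 0.198 for Ndufs7, 0.159 for Ndufb10 and 0.607 for Cyc1); the 5 were Uqcrc1, Uqcrq, Ndufb8, Sdhc and Cox5a. Of the fatty acid oxidation list 3 of 31 genes fell, where 3.52 percent of all genes fell. They were Acads, the short-chain acyl-CoA dehydrogenase (-0.26), Etfb, which passes on its electrons (-0.27), and Acaa1a, a peroxisomal thiolase (-0.18). None of them was called with the correction. Under leave-one-out of libraries, the call was lost for Acads in 1 of 12 (up to 0.0513), Etfb in 2 of 12 (up to 0.0688) and Acaa1a in 9 of 12 (up to 0.121). Ppara, the receptor that switches this pathway on, differed by 0.55 ± 0.16 (adjusted p = 0.0527), with -0.01 in females and 1.10 in males.

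Of 37 cytosolic ribosomal protein genes, 11 fell and none rose, where 3.52 percent of all genes fell. Their median was -0.17 over both sexes, 0.05 in females and -0.39 in males. Rps15 had 185, 172 and 198 CPM in female and 150, 153 and 136 CPM in male nmrHAS2 kidneys, against 180, 187 and 181 CPM in female and 214, 241 and 218 CPM in male CreER kidneys, so that the groups overlapped in females and were apart in males. Its change was -0.30 ± 0.07 (adjusted p = 0.0156, edgeR). Rplp2, Rpl8 and Rps2 fell by 0.30, 0.20 and 0.20. The call was lost without single libraries for Rps15 in 1 of 12 (up to 0.0522) and Rps2 in 3 of 12 (up to 0.0671). The median transcript length of the list was 1120 bases, and with the length and GC correction none of the 37 was called and the median was -0.06. Ribosomal protein genes have many near-identical copies, which makes their counts uncertain.

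Among the B and plasma cell genes, Jchain and Igkc rose. Jchain, the joining chain that plasma cells add to secreted IgA and IgM, had 50.4, 76.9 and 42.8 CPM in female and 8.27, 7.62 and 26 CPM in male nmrHAS2 kidneys, against 9.53, 12.7 and 14.2 CPM in female and 12.8, 9.72 and 6.56 CPM in male CreER kidneys. The female groups were apart, while in males 1 nmrHAS2 kidney lay above and the other 2 within the range of the CreER kidneys. The change over both sexes was 1.38 ± 0.33 (adjusted p = 0.0182, edgeR); it did not pass without replicate 2 of the female nmrHAS2, replicate 3 of the male nmrHAS2 or replicate 3 of the male CreER kidneys, with an adjusted p of up to 0.0667. Igkc, the kappa light chain constant gene, rose by 1.03 ± 0.31 (adjusted p = 0.0475, edgeR), with 1.96 in females and 0.10 in males, and lost the call in 10 of 12 (up to 0.192) cases with 1 library left out. With the length and GC correction Jchain passed (1.33, adjusted p = 0.0471, edgeR) and Igkc did not (1.10, adjusted p = 0.0826). Of 12 B and plasma cell genes, 2 rose and none fell, where 2.95 percent of all genes rose. The list's median was 0.97 in females and -0.23 in males. The sex difference passed for neither Jchain (adjusted p = 0.149, edgeR) nor Igkc (adjusted p = 0.0859).

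The 7 genes called in the test within females, chosen for mention after their values were seen, were the transgene, 4 immunoglobulin genes, Fgf9 and Nnt. Among the immunoglobulin genes, Iglv1 had 20, 16.8 and 5.08 CPM in female nmrHAS2 kidneys, against 0.962, 1.37 and 0.784 CPM in female CreER kidneys (log2 change 3.75 ± 0.58, adjusted p = 0.0111, edgeR). Immunoglobulin segments are near-identical copies of one another, so single segments are uncertain. Segments that rose over both sexes, also with the length and GC correction, include Ighv1-9, Ighv1-19, Ighv1-34, Ighv1-81 and Ighv1-82, chosen after their values were seen. Their groups did not overlap in either sex, and their log2 changes in males were 2.12, 2.80, 1.99, 6.77 and 3.53. Their mean levels were only 0.187 to 0.932 CPM, and other segments are not given here for males. Fgf9, a growth factor of kidney development, had 25.3, 27.9 and 22.1 CPM in female nmrHAS2 kidneys, against 11.7, 13.7 and 11.6 CPM in female CreER kidneys (1.03 ± 0.14, adjusted p = 0.00625), and 11.7, 15.9 and 13.6 CPM in male nmrHAS2 kidneys, against 12.8, 13.1 and 11.4 CPM in male CreER kidneys. The groups were apart in females and overlapped in males, and the sex difference of Fgf9 passed (adjusted p = 0.0281).

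Nnt, the mitochondrial transhydrogenase that makes NADPH, had 111, 110 and 111 CPM in female nmrHAS2 kidneys, against 189, 196 and 190 CPM in female CreER kidneys, and fell there by 0.79 ± 0.11 (adjusted p = 0.00625, edgeR). In males it had 201, 211 and 173 CPM in nmrHAS2 kidneys, against 182, 174 and 153 CPM in CreER kidneys, which overlap. The difference between the sexes was -0.99 on the log2 scale (adjusted p = 0.00979). As background, mice of the C57BL/6J substrain carry a deletion in Nnt, and the substrain of each animal is not in the labels used here.

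Of 19 macrophage genes, 3 rose and none fell, with a median log2 change of 0.53 (0.61 in females and 0.29 in males); over all genes 2.95 percent rose. Adgre1, which encodes the F4/80 antigen, had 14.6, 12 and 18.3 CPM in female and 6.49, 4.29 and 6.63 CPM in male nmrHAS2 kidneys, against 8.57, 8.59 and 10.8 CPM in female and 2.88, 2.95 and 3.54 CPM in male CreER kidneys. The groups did not overlap in either sex, and the change was 0.79 ± 0.22 (adjusted p = 0.037, edgeR). It lost the call in 9 of 12 cases when 1 library was left out, with an adjusted p of up to 0.0958. Mrc1, the mannose receptor, rose by 0.66 ± 0.19 (adjusted p = 0.0427) and Trem2, a lipid receptor of macrophages, by 1.65 ± 0.49 at levels of 0 to 1.01 CPM (adjusted p = 0.0467). Ms4a6b, a membrane protein of immune cells, rose by 0.83 ± 0.24 (adjusted p = 0.0448). With 1 library left out at a time, the call was lost for Mrc1 in 11 of 12 (up to 0.133), Trem2 in 10 of 12 (up to 0.158) and Ms4a6b in 10 of 12 (up to 0.119). With the length and GC correction the list's median stayed at 0.53, while none of the 3 passed (adjusted p = 0.0858, 0.161 and 0.105). Ms4a6b was then at 0.72 and did not pass either (adjusted p = 0.141, edgeR).

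At 24 months these genes had the opposite sign, and here the difference between ages passed. The values of 6 months that gave their calls also enter that difference. Adgre1 was at -0.64 at 24 months, and the change at 24 months minus that at 6 months was -1.43 (adjusted p = 0.0169, edgeR). For Mrc1 it was -1.38 (adjusted p = 0.013), with a fall of its own at 24 months (-0.72, adjusted p = 0.0415), for Trem2 -2.29 (adjusted p = 0.0471), for Ms4a6b -1.32 (adjusted p = 0.0346) and for Ctss, a lysosomal protease of macrophages, -1.15 (adjusted p = 0.0403). The median of the macrophage list was -0.56 at 24 months. The summed level of the 19 markers at 6 months was 273 to 482 CPM in female and 137 to 217 CPM in male nmrHAS2 kidneys, against 220 to 259 CPM in female and 131 to 188 CPM in male CreER kidneys, so the sums overlapped in males only.

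Vcam1, the adhesion molecule that captures leukocytes and that injured tubules also make, had 17.9, 18.2 and 23 CPM in female and 7.89, 14.5 and 10.5 CPM in male nmrHAS2 kidneys, against 12.9, 12.7 and 16.5 CPM in female and 5.60, 5.35 and 5.10 CPM in male CreER kidneys. It rose by 0.76 ± 0.17 (adjusted p = 0.0148, edgeR) without overlap in either sex, and with the correction it was at 0.65 and did not pass (adjusted p = 0.0566). Of 19 complement genes, 2 rose and none fell (median 0.32), where 2.95 percent of all genes rose. C1s1, a protease of the first component, had 40.7, 45.8 and 65.4 CPM in female and 25.5, 25.6 and 34.7 CPM in male nmrHAS2 kidneys, against 36.4, 36.5 and 45 CPM in female and 12.5, 17.9 and 22 CPM in male CreER kidneys. The groups overlapped in females and were apart in males. It rose by 0.54 ± 0.14 (adjusted p = 0.0276, edgeR), and with the correction it was at 0.52 and did not pass (adjusted p = 0.067). Cp, the copper-carrying ferroxidase ceruloplasmin, rose by 0.61 ± 0.17 (adjusted p = 0.0358, edgeR). With the correction Cp was at 0.49 and did not pass (adjusted p = 0.154, edgeR). Under leave-one-out of libraries, the call was lost for C1s1 in 4 of 12 (up to 0.0793) and Cp in 10 of 12 (up to 0.107). For C1s1 and Cp the difference between ages passed, at -0.75 and -0.96 (adjusted p = 0.0476 and 0.0348).

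Other immune lists had no or single calls, where 2.95 percent of all genes rose. Interferon response genes had a median of 0.27 with none of 34 called, T and NK cell markers 0.33 with none of 18, antigen presentation genes 0.16 with none of 16, and neutrophil markers 0.39 with none of 9. Of 31 genes of inflammatory cytokines and NF-kB, Vcam1 rose and none fell (median 0.30), and Ccl2, a chemokine that draws monocytes, was at 1.41 ± 0.44 (adjusted p = 0.0586). Serpina3g, a protease inhibitor, and Ifi211, an interferon-inducible gene, rose by 0.93 and 0.89 (adjusted p = 0.0481 and 0.041, edgeR). Both belong to families of close copies and are uncertain, and with 1 library left out at a time the call was lost for Serpina3g in 11 of 12 (up to 0.133) and Ifi211 in 11 of 12 (up to 0.0983).

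**Figure D4:**
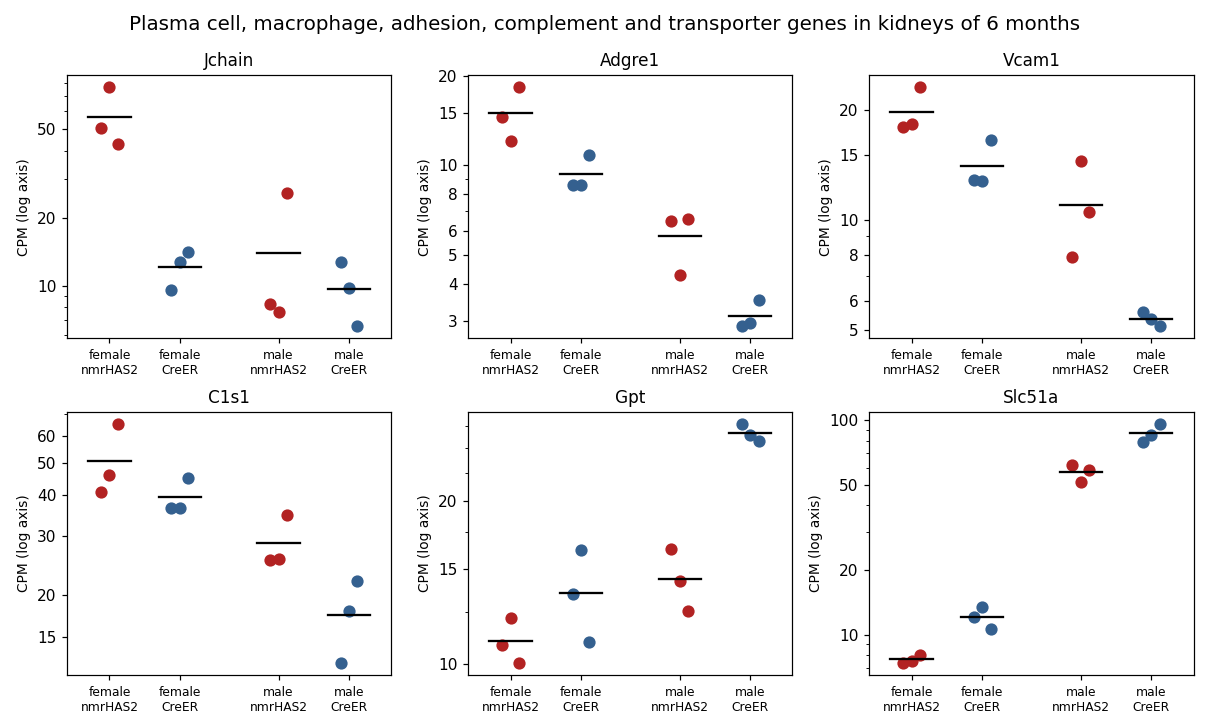
Levels of 6 genes in each kidney of 6 months, in CPM on log axes; points are libraries and bars are group means. Jchain is high in the 3 female nmrHAS2 kidneys and in 1 male nmrHAS2 kidney, Adgre1 and Vcam1 are higher in nmrHAS2 kidneys of both sexes, C1s1 is apart in males, Gpt is lower in male nmrHAS2 kidneys, and Slc51a is lower in both sexes.

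Genes of dividing cells had positive values with 1 call. Of 28 proliferation genes, Kif11 rose and none fell, which is 3.57 percent, where 2.95 percent of all genes rose. The list's median was 0.43 (0.56 in females and 0.33 in males). Kif11, the motor that separates the spindle poles, had 3.21, 3.19 and 4.07 CPM in female and 1.37, 2.08 and 2.06 CPM in male nmrHAS2 kidneys, against 1.95, 1.68 and 1.54 CPM in female and 0.908, 1.06 and 0.992 CPM in male CreER kidneys (0.95 ± 0.27, adjusted p = 0.042, edgeR). The groups did not overlap in either sex. Aspm, a spindle pole protein, and Ncapg2, a condensin subunit, rose by 1.06 ± 0.30 and 0.83 ± 0.22 (adjusted p = 0.0391 and 0.0303). The call was lost without single libraries for Kif11 in 11 of 12 (up to 0.101), Aspm in 12 of 12 (up to 0.092) and Ncapg2 in 9 of 12 (up to 0.0812). With the length and GC correction they were at 0.83, 0.87 and 0.73 and did not pass (adjusted p = 0.123, 0.138 and 0.0952, edgeR). Top2a at 1.19, Cenpf at 1.21 and Mki67 at 1 missed the threshold (adjusted p = 0.055, 0.0558 and 0.0775), although every nmrHAS2 kidney lay above every CreER kidney of its sex for each of them. Libraries that do not overlap in the same direction in both sexes were found for 2.98 percent of all genes tested.

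Of 41 collagen and matrix genes, 5 rose and none fell, with a median of 0.26. For this and the other lists of this paragraph, 2.95 percent of all genes rose and 3.52 percent fell. Col5a1, a fibrillar collagen, had 11.4, 10.9 and 13.6 CPM in female and 7.82, 8.21 and 9.28 CPM in male nmrHAS2 kidneys, against 10.2, 10.4 and 10.2 CPM in female and 5.65, 5.44 and 5.90 CPM in male CreER kidneys. It rose by 0.40 ± 0.10 (adjusted p = 0.0243, edgeR) and passed with the length and GC correction (adjusted p = 0.0444). Fbn1 (fibrillin), Col14a1, Fn1 (fibronectin) and Col4a3, a basement membrane collagen of the glomerulus, rose by 0.60, 0.67, 0.65 and 0.30 and did not pass with the correction. With 1 library left out at a time, the call was lost for Col5a1 in 4 of 12 (up to 0.0633), Fbn1 in 5 of 12 (up to 0.078) and Col14a1 in 6 of 12 (up to 0.0811). Transcripts of this list are long, with a median of 5564 bases. Of the quintile of genes with the longest transcripts, from 5216 bases, 11.4 percent rose, near the 12.2 percent of this list. Of 13 fibroblast markers, 1 rose and none fell (median 0.33), and their summed level was 774 to 1128 CPM in female and 370 to 561 CPM in male nmrHAS2 kidneys, against 719 to 905 CPM in female and 195 to 300 CPM in male CreER kidneys. Endothelial genes Pecam1 and Ptprb rose by 0.32 and 0.34 among 15 markers with a median of 0.09, and lost the call in 8 of 12 (up to 0.0983) and 9 of 12 (up to 0.116) cases. With the correction they were at 0.31 and 0.17 and did not pass (adjusted p = 0.069 and 0.287, edgeR). Mmrn1, an endothelial protein that marks lymphatic vessels, rose by 0.86 ± 0.18 (adjusted p = 0.0108), and its difference between ages passed (-1.17, adjusted p = 0.018).

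Of 28 immediate early genes 3 rose and none fell (median 0.20), where 2.95 percent of all genes rose. Dusp6, a phosphatase induced by ERK signalling that shuts ERK off, had 43, 47.1 and 48.8 CPM in female and 55.1, 88.3 and 48.8 CPM in male nmrHAS2 kidneys, against 36.6, 38.3 and 36.5 CPM in female and 43.6, 40.6 and 29.8 CPM in male CreER kidneys. The groups did not overlap in either sex, the change was 0.54 ± 0.11 (adjusted p = 0.011, edgeR), and it was 0.49 at 24 months (adjusted p = 0.0335). Replicate 2 of the male nmrHAS2 kidneys, the one highest in transgene, was also highest for Dusp6. Myc and Klf6, both transcription factors, rose by 0.73 ± 0.21 and 0.41 ± 0.10 (adjusted p = 0.0412 and 0.0259), and lost the call in 8 of 12 (up to 0.125) and 5 of 12 (up to 0.0778) cases. With the length and GC correction they were at 0.80 and 0.31 and did not pass (adjusted p = 0.074 and 0.136, edgeR). Dusp4, a phosphatase of the same family, and Hbegf, a ligand of the EGF receptor, chosen for mention after their values were seen, rose by 0.71 ± 0.16 and 0.46 ± 0.12 (adjusted p = 0.0139 and 0.027), and Hbegf also at 24 months (0.84, adjusted p = 0.00194). Dusp6, Dusp4 and Hbegf passed with the length and GC correction.

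Among genes of tubule transport and metabolism Slc51a and Gpt were among the largest falls by the rule stated with the processing. Slc51a, a subunit of the basolateral organic solute and bile acid exporter, had 7.36, 7.53 and 8.07 CPM in female and 62, 51.2 and 58.5 CPM in male nmrHAS2 kidneys, against 12.1, 13.5 and 10.6 CPM in female and 78.8, 85.2 and 96.1 CPM in male CreER kidneys. It fell by 0.63 ± 0.12 on the log2 scale (adjusted p = 0.00541, edgeR), without overlap in either sex and with the same value under the correction (-0.63, adjusted p = 0.0107). At 24 months it was at 0.27, and the difference between ages passed (0.90, adjusted p = 0.013). Gpt, alanine aminotransferase, had 10.9, 12.2 and 10 CPM in female and 16.3, 14.2 and 12.5 CPM in male nmrHAS2 kidneys, against 13.5, 16.2 and 11 CPM in female and 27.7, 26.5 and 25.7 CPM in male CreER kidneys. It fell by 0.59 ± 0.10 (adjusted p = 0.00332), with overlap in females, and passed with the correction (adjusted p = 0.0178).

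Some of the largest changes differed between the sexes in the test without the length and GC correction. Ugt1a2, a glucuronosyltransferase, had 9.11, 21 and 12.1 CPM in male nmrHAS2 kidneys, against 84, 87.5 and 129 CPM in male CreER kidneys, and 757, 798 and 727 CPM in female nmrHAS2 kidneys, against 808, 911 and 840 CPM in female CreER kidneys. Pcdhgc4, a protocadherin, had 0.493, 0.416 and 0.174 CPM in male nmrHAS2 kidneys, against 8.12, 7.6 and 12 CPM in male CreER kidneys, with 0.402 to 0.605 CPM in female nmrHAS2 kidneys and 0.302 to 0.812 CPM in female CreER kidneys. The groups of Ugt1a2 were apart in both sexes and those of Pcdhgc4 in males. Both fell (log2 change -1.50 and -2.42, adjusted p = 0.0152 and 0.0118, edgeR) and their sex difference passed (adjusted p = 0.0376 and 0.0281), though not with the length and GC correction (adjusted p = 0.11 and 0.0812). Genes of both clusters share exons with their neighbours, so the split of counts between cluster members is uncertain. Gm49345, an unnamed gene model, was at 0 in the 3 male CreER kidneys, against 0.949, 1.54 and 1.01 CPM in male nmrHAS2 kidneys, and had 3.67 to 4.94 CPM in female nmrHAS2 and 4.06 to 4.81 CPM in female CreER kidneys. Its difference between the sexes had the smallest p of all genes (adjusted p = 0.00382).

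Slc5a12, a sodium-lactate cotransporter of the early proximal tubule, rose by 0.68 ± 0.20 (adjusted p = 0.0448, edgeR). It had 428, 522 and 320 CPM in male nmrHAS2 kidneys, against 198, 191 and 111 CPM in male CreER kidneys, and 492, 451 and 453 CPM in female nmrHAS2 kidneys, against 429, 473 and 473 CPM in female CreER kidneys. The male groups were apart and the female groups overlapped, and the call was lost in 10 of 12 (up to 0.111) cases. With the length and GC correction Slc5a12 was at 0.60 and did not pass (adjusted p = 0.131, edgeR). It was the only gene called of 35 in the list of proximal tubule function, whose median was -0.04. Slc4a4, the basolateral bicarbonate cotransporter, was at -0.11 in females and 0.88 in males (sex difference adjusted p = 0.0306). Apob, which the proximal tubule also makes, rose by 0.55 ± 0.12 (adjusted p = 0.0115), with 0.14 in females and 0.95 in males, and had an adjusted p of 0.101 with the correction. In replicate 3 of the male CreER kidneys the 11 papillary and urothelial markers summed to 136.2 CPM, against 36.5 to 53.7 CPM in male nmrHAS2 kidneys and 24.5 and 35.4 CPM in the other 2 male CreER kidneys. Without that library 650 genes were called, and its share of medulla was not tested.

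The remaining largest changes by the rule stated with the processing were in genes of diverse function. Gucy1a2, a subunit of the nitric oxide receptor, and Sytl5, a vesicle protein, rose by 1.21 ± 0.29 and 1.20 ± 0.28 (adjusted p = 0.0181 and 0.0165, edgeR), with 0.40 and 0.50 in females and 2.01 and 1.90 in males. Adm2, a vasodilating peptide, and Fam131c fell by 0.80 ± 0.22 and 0.89 ± 0.26 (adjusted p = 0.0339 and 0.0439). Ptges3l, Galnt2l and Mpped2 fell by 0.60, 0.57 and 0.53. Ndrg1, a stress and hypoxia gene, rose by 0.54 ± 0.13 as the single call among 22 hypoxia genes, Gstp1, a glutathione transferase, fell by 0.36 ± 0.07 as the single call among 25 genes of NRF2 and glutathione, and Trp53inp1 and Eda2r, both targets of p53, rose by 0.33 and 0.58 among 19 genes of p53 and senescence. Skil, which restrains TGF-beta signalling, rose by 0.37 among 21 targets of TGF-beta and YAP, and Plce1, a phospholipase of podocytes, by 0.33 among 11 podocyte markers. Beside these single or few calls per list, 2.95 percent of all genes rose and 3.52 percent fell. With the length and GC correction Sytl5 still passed (1.20, adjusted p = 0.0426, edgeR). The others of these genes did not: Gucy1a2 was at 1.13, Adm2 at -0.62, Fam131c at -0.69, Ptges3l at -0.46, Galnt2l at -0.57, Mpped2 at -0.54, Ndrg1 at 0.51 and Eda2r at 0.46 (adjusted p = 0.0531 to 0.18). Skil, Plce1, Trp53inp1 and Gstp1 were then at 0.21, 0.18, 0.18 and -0.18 (adjusted p = 0.244 to 0.318). Heat shock genes (median -0.08), the unfolded protein response (-0.10), cholesterol synthesis (-0.12), glucocorticoid response (0.18), the renin-angiotensin list (0.01) and the male- and female-biased kidney genes (-0.20 and 0.18) had no call. Under leave-one-out of libraries, the call was lost for Gucy1a2 in 2 of 12 (up to 0.0539), Sytl5 in 1 of 12 (up to 0.0511), Adm2 in 7 of 12 (up to 0.0914), Fam131c in 10 of 12 (up to 0.129), Ptges3l in 10 of 12 (up to 0.117), Galnt2l in 8 of 12 (up to 0.0627), Mpped2 in 8 of 12 (up to 0.125), Ndrg1 in 4 of 12 (up to 0.0565), Trp53inp1 in 9 of 12 (up to 0.103), Eda2r in 10 of 12 (up to 0.111) and Skil in 3 of 12 (up to 0.0658).

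**Figure D5:**
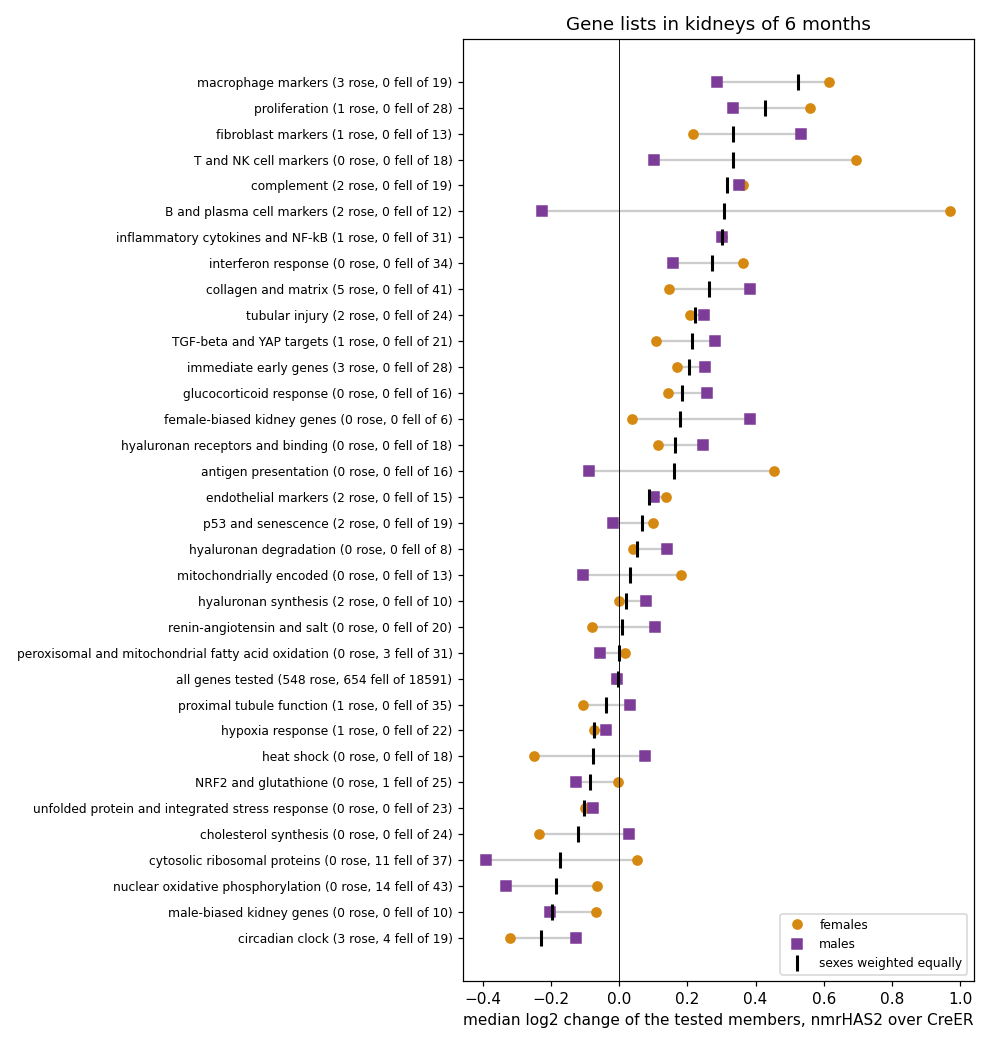
Median log2 change, nmrHAS2 over CreER kidneys of 6 months, of the tested members of each pathway list and of 5 cell type lists, in females (circles), males (squares) and with the sexes weighted equally (bars), beside all genes tested. Over both sexes the macrophage (0.53) and proliferation (0.43) lists lie highest and the clock list (-0.23) lowest; the number of members that rose and fell stands beside each name.

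In the kidneys of 24 months, other animals with their own controls, 231 genes rose (1.24 percent) and 96 fell (0.516 percent), 1.76 percent of those tested in all. Of the 1202 genes called at 6 months, 13 were also called at 24 months in the same direction, which is 1.08 percent of the first list and 3.98 percent of the second, and 11 were called in the opposite direction. The fitted value at 24 months had the same sign for 375 of the 548 genes that rose and 350 of the 654 that fell at 6 months. Over all genes the median log2 change at 24 months was -0.00885. The share of all genes with the same sign at both ages is not given here, so these counts are not read as agreement. The count at 24 months ran from 29 to 1441 genes with 1 library left out at a time. The transgene, Has2, Gfpt1, Dusp6, Col4a3 and Hbegf were among the 13. The test of the difference between ages called 437 genes, 2.35 percent of those tested, and 233 of the 1202. That difference holds the same values of 6 months by which the 1202 were called. Their share is therefore raised by the selection and cannot show an effect of age. Its 5 smallest p-values belonged to Scrn2, Glrx5, Ecsit, Plpp2 and Tubb4b, all of which fell at 6 months by 0.25 to 0.36 on the log2 scale and were at 0.14 to 0.28 at 24 months. Glrx5, which builds iron-sulfur clusters in mitochondria, also fell with the length and GC correction (-0.31, adjusted p = 0.00614), while Scrn2, Ecsit, Plpp2 and Tubb4b were at -0.16, -0.17, -0.11 and -0.17 and did not pass (adjusted p = 0.116 to 0.362). Among the CreER libraries of 24 months, replicate 3 of the females held 41 counts of the transgene, and without it 85 genes were called at 24 months.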

How the data were processed

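RNA was read from 24 kidney samples, of which 12 of 6 months carry the main comparison. Per the labels' protocols, RNA came from frozen, pulverised tissue by phenol and column extraction with DNase. The authors deposited expected counts per gene; Trim Galore 0.6.5 and Salmon 1.4.0 are named in the submitters' processing notes, and neither genome build nor annotation is named there. Expected counts were rounded to whole numbers, and 18591 of 40946 genes passed the filter on low counts by group.

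All 24 kidney libraries were fitted together with 1 mean for each of 8 groups in edgeR 4.0.16 (R 4.3.3; TMM scaling, quasi-likelihood test), and p-values were adjusted over all genes tested by Benjamini-Hochberg at 0.05. The main contrast averages the nmrHAS2 minus CreER log2 changes of females and males. Each standard error was obtained by dividing the log2 change by the root of its F statistic. Levels are TMM-scaled CPM, except the summed levels of marker lists and the transgene and Has2 levels of the Results, which are scaled to the library total only. Among the results flagged for a closer look, the transgene level is TMM-scaled. Intervals and the limit for a count of 0 (3 counts) cover counting error only. Nothing in the labels says which animal gave each library, so p-values measure only the spread between these samples.

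Named genes are the transgene and Has2, the 12 largest rises and falls among genes called at a mean level of 1 CPM or more, all hyaluronan genes, up to 4 members of each list with the smallest p, and the 5 smallest p for the sex and the age difference. Clock, Fn1 and the 5 oxidative phosphorylation genes called with the correction lie outside that rule. Other genes outside it are said to be so where they are named. The comparison, its members and the 52 lists were chosen with earlier results of these data known. Alternatives were DESeq2 1.42.0, RLE size factors, no filter, a fit of the 12 kidneys alone, a replicate block, leaving out each library, and, added after seeing the data, removing each library's trend on transcript length and GC content (mgcv 1.9.3). The steps were tested on simulated data. Promoter sequences come from RefSeq on GRCm38.p6. Results of a few genes are not reported here.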

Additional observations from a re-analysis of the deposited data

Results flagged for a closer look

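Single libraries were flagged as far from the other 5 of their genotype at 6 months in 11 of 348 groups examined. In uniform groups chance flags about 1 in 20, and 11 of 348 is not above that rate. These groups pool females and males, which also differ in library kind, so that rate may not hold for them. Replicate 2 of the male nmrHAS2 kidneys had 23.7 CPM of the transgene (others 5.31 to 8.75), 88.3 CPM of Dusp6 (others 43.0 to 55.1) and an adipocyte marker sum of 199.9 CPM (others 581 to 899). Replicate 3 of the male nmrHAS2 kidneys had 30.9 CPM of Klf6 (others 46.4 to 53.7) and 1.29 CPM of Has3 (others 0.505 to 0.721). Replicate 3 of the female nmrHAS2 kidneys had 24.9 CPM of the clearance receptor Stab1 (others 18.7 to 20.3), 70.2 CPM of Ugdh (others 94.4 to 105) and an endothelial marker sum of 792 CPM (others 598 to 656). Among CreER kidneys, replicate 1 of the females had 53.4 CPM of Gfpt1 (others 47.6 to 49.7), and replicate 1 of the males had 15.3 CPM of Stab1 (others 17.96 to 18.8) and an adrenal marker sum of 385 CPM (others 1.59 to 3.02).

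The change differed between the sexes by the test of the difference (edgeR, adjusted p under 0.05), and sex cannot be told apart from library kind. As log2 change in females minus that in males, Gm49345 had -8.26, a fitted value that is no bound because the male CreER kidneys were at 0. Nnt had -0.99, Slc4a4 -0.99, Ccdc186 -0.65, Hook3 -0.61 and Zfp292 -0.60. Pcdhgc4 had 4.53, Ugt1a2 2.67, Galnt2l 1.05, Rps15 0.63, Scrn2 0.55, Rplp2 0.54, Etfb 0.47, Glrx5 0.42, Atp5d 0.37, Rpl8 0.36 and Rps2 0.35. With the length and GC correction the sex difference passed for Gm49345 and Nnt (adjusted p = 0.00211 and 0.0385) and for none of the others named here.

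The change also differed between ages by the same kind of test. That difference holds the values of 6 months by which many of these genes were named. As log2 change at 24 months minus that at 6 months, immune, complement and vessel genes had negative values: Trem2 -2.29, Serpina3g -1.56, Adgre1 -1.43, Mrc1 -1.38, Ms4a6b -1.32, Mmrn1 -1.17, Ctss -1.15, Cp -0.96, C1s1 -0.75 and Pecam1 -0.50. Zfp292 had -0.35 and Hook3 -0.29. Positive values were found for Slc51a (0.90), Scrn2 (0.60), Tubb4b (0.58), Glrx5 (0.50), Gstp1 (0.49), Plpp2 (0.49), Ecsit (0.44), Acads (0.34), Cyc1 (0.33) and Atp5d (0.31). These age differences are without the length and GC correction. With it, the change at 6 months passed for Mmrn1, Slc51a and Glrx5 (adjusted p = 0.046, 0.0107 and 0.00614, edgeR). It passed for none of the others named here. The age difference of each gene with the correction is not given here.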

How the results depend on the processing

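The 1202 genes called at 6 months became 661 with no filter on low counts, 1842 with DESeq2, 1899 in a fit of the 12 kidneys alone and 218 with the length and GC correction; within females the count became 19 with DESeq2, and within males 1079 with the correction. The 669 genes with a sex difference became 388 with no filter, 1442 with DESeq2, 1088 in the fit of 12 kidneys and 4 with the correction. At 24 months DESeq2 called 923 genes, and the 437 genes with an age difference became 282 with no filter and 1177 with DESeq2. Leaving out 1 library at a time gave 410 to 1076 genes at 6 months, 0 to 10 within females, 1926 to 3089 within males, 49 to 752 for the sex difference, 29 to 1441 at 24 months and 180 to 670 for the age difference. At 6 months the count moved by over 1.5 times without nmrHAS2 female replicate 1 (658), 2 (568) or 3 (732), nmrHAS2 male replicate 2 (662) or 3 (730), CreER female replicate 1 (620) or 2 (410) and CreER male replicate 3 (650). The cause was not tested.

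A replicate block gave 1096 genes at 6 months, 5 within females, 3075 within males, 478 for the sex difference, 223 at 24 months and 336 for the age difference. Samples of the same number deviated together (r over 0.1) in 4 of 6 pairs, all 3 male ones among them, and 8 of 12 correlated best with their own number; the numbers were not taken as pairing because 2 female pairs (r = -0.199 and 0.0835) fell short. Under the block 11 named calls were lost (Adgre1, Trem2, Ms4a6b, Igkc, Serpina3g, Aspm, Kif11, Myc, Acaa1a, Fam131c and Ptges3l) and 3 gained. Of the 74 named genes called, 32 kept the call whichever library was left out, and none of the 74 changed sign under an alternative. Of the 1202 genes called, 1195 had the same sign in the fit of 12 kidneys and 1184 with the length and GC correction, which lost 55 named calls. At the depth of 21.5 M to 37.8 M counts per library, a count of 0 allows 0.0793 to 0.14 CPM.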

Other observations

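Further genes called at 6 months, chosen after their values were seen, were Arrdc4, Txnip, Mrps18a, Mrpl43 and Phb2. Arrdc4, an arrestin induced by glucose, had 13.7, 12.6 and 14.3 CPM in female and 18.6, 15.8 and 16.3 CPM in male nmrHAS2 kidneys, against 11.1, 9.36 and 12 CPM in female and 9.84, 10.4 and 11.4 CPM in male CreER kidneys. Its groups did not overlap in either sex, and it rose by 0.50 on the log2 scale (adjusted p = 0.00144, edgeR; 0.00541 with the length and GC correction). Txnip, its relative, rose by 0.67 (adjusted p = 0.028). Mrps18a and Mrpl43, proteins of the mitochondrial ribosome, fell by 0.30 and 0.29 (adjusted p = 0.00145 and 0.0035), and Phb2, a scaffold of the inner mitochondrial membrane, fell by 0.29 (adjusted p = 0.00206). All 3 of these falls also passed with the correction.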
